A study of Mus musculus with 2 samples.

Results

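Kera-high corneal keratocytes are the stromal cells of the mouse cornea whose transcripts of Kera, the gene of the keratan sulfate proteoglycan keratocan, exceed a fixed level. The cells came from dissociated cornea and limbus profiled by droplet single-cell RNA sequencing, in 1 library labelled Pax6 heterozygous (genotype given as Pax6 +/-) and 1 wild-type library. Lens, retina, iris and trabecular meshwork had been removed and most of the conjunctiva cut away, per the labels' protocols. The series text names 2 mice of each genotype, and whether a library pools them is not stated in the labels. Strain, age, sex and the Pax6 allele are not given in the sources used here. Both libraries were untreated apart from enzymatic dissociation, which they share. With 1 library per genotype no difference below has a replicate check, and none was tested. Intervals are exact 95% intervals of the counting error alone.

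Members were chosen from each cell's unique molecular identifiers (UMIs, counts of captured transcripts). Kept cells had 500 or more genes, 1000 or more UMIs, and no more than 20% of UMIs from mitochondrially encoded genes. Per 10000 UMIs of the cell, a stromal cell had at least 50 for Dcn, Lum and Kera together and under 30 for the basal keratins Krt5, Krt14 and Krt15 together. A stromal cell with at least 10 UMIs of Kera per 10000 is called Kera-high, and one below that limit Kera-low. The rule found 1133 Kera-high cells among 19696 kept cells. They were 566 of 9542 cells in the library labelled Pax6 heterozygous (5.93%, interval 5.47 to 6.42) and 567 of 10154 cells in the wild-type library (5.58%, interval 5.15 to 6.05). Kera-low cells numbered 343 in the library labelled Pax6 heterozygous and 89 in the wild-type library. Kera, Dcn, Lum and the 3 keratins were used by the rule, so their values below describe the choice.

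Keratocytes are neural-crest-derived cells that lie flat between the collagen lamellae of the corneal stroma. They make the thin, evenly spaced collagen fibrils that keep the tissue transparent, and coat them with the small leucine-rich proteoglycans decorin, lumican and keratocan. Lumican and keratocan carry keratan sulfate chains, which are extended by B3gnt7 and sulfated by Chst5 in the mouse, while fibroblasts of the limbus, sclera and wounds express less keratocan.

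On GRCm38, Kera lies at chr10:97606879-97613692, next to Lum at chr10:97565128-97572703 and Dcn at chr10:97479609-97518143, all on the plus strand. B3gnt7 lies at chr1:86302832-86307305 on the plus strand and Chst5 at chr8:111889136-111910447 on the minus strand. The promoter windows of the 3 keratan sulfate genes that the RefSeq table (GRCm38.p6) holds are shown because Kera, B3gnt7 and Chst5 were high in the same cells. Each runs from 250 bases before to 50 after the start annotated in RefSeq, which can differ from the end of the gene span above, 5′ to 3′ on the gene's strand, and capitals mark matches on either strand. The motifs searched were the CCAAT box, the GC box spelled GGGCGG, the E-box spelled CACGTG and the TATA box spelled TATAAA, and no matches overlapped.
Kera: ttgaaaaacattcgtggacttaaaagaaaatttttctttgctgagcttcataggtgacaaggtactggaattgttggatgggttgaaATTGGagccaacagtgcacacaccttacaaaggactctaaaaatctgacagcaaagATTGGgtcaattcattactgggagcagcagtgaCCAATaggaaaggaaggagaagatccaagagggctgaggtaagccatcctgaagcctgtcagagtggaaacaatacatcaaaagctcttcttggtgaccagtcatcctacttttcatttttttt
B3gnt7: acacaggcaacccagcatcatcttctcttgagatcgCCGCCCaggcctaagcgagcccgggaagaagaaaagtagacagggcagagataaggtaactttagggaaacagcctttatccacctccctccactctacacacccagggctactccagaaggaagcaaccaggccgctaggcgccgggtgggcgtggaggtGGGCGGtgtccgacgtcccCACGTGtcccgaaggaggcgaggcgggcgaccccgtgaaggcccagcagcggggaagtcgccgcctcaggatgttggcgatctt
Chst5: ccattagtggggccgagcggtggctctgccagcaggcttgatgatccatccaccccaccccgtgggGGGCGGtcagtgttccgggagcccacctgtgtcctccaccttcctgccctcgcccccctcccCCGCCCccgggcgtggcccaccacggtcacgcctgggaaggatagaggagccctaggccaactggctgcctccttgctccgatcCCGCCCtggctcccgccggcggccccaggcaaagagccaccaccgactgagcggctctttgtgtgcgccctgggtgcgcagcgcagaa
The Kera window, chr10:97606955-97607254, had 41.0% G and C and held 3 CCAAT matches, a motif present in 37.4% of all 32851 windows of that length. The B3gnt7 window, chr1:86302971-86303270, had 62.0% G and C, 2 GGGCGG matches (in 35.7% of windows) and 1 CACGTG match (in 7.15%). The Chst5 window, chr8:111910150-111910449, had 70.7% G and C and 3 GGGCGG matches. TATAAA, present in 13.6% of windows, was in none of these 3. The windows are a description of letters and were not related to the levels.

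Depth and marker levels come first. Kera-high cells held a median of 16309 UMIs and 4048 genes in the library labelled Pax6 heterozygous, against 9746 UMIs and 3345 genes in wild type. All barcodes together held 131567589 UMIs in the library labelled Pax6 heterozygous and 124540296 UMIs in wild type, and no Kera-high barcode was shared between them. Levels below are in CPM, the UMIs of a gene per 1000000 UMIs summed over a class of cells, without mitochondrially encoded genes. Of the 10 keratocyte markers, 9 were detected in both sets of Kera-high cells, with a summed level of 63741 CPM in the library labelled Pax6 heterozygous and 62187 CPM in wild type. Ptgds, another keratocyte marker, was at 0 UMIs in both. In vessel, mural, Schwann and immune cells of the same libraries, together called reference cells, the same marker sum was 409.6 CPM in the library labelled Pax6 heterozygous and 839 CPM in wild type. The sum includes Kera, Lum and Dcn, by which the Kera-high cells were chosen, so this contrast describes the choice and is no separate check of it. In Kera-low cells, the nearest class, the sum was 47161 CPM in the library labelled Pax6 heterozygous and 48826 CPM in wild type.

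Pax6, the targeted transcription factor gene, stood at 9.77 CPM in Kera-high cells labelled Pax6 heterozygous and at 19.2 CPM in wild-type Kera-high cells, a ratio of 0.510 (interval 0.378 to 0.687). Those levels lie at or under the 16.1 CPM of reference cells labelled Pax6 heterozygous and the 54.7 CPM of wild-type reference cells, which should lack the gene, so they read as background. In epithelial cells, where Pax6 is normally expressed, the level was 745 CPM in the library labelled Pax6 heterozygous and 372 CPM in wild type. The level of Pax6 therefore does not mark the genotype, and 3' tags do not show whether a transcript carries the mutant allele.

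Epithelial transcripts were counted in the Kera-high and the reference cells of wild type. Krt12, the cornea-specific keratin of the epithelium, was at 17.8 CPM in Kera-high cells labelled Pax6 heterozygous and at 978 CPM in wild-type Kera-high cells, while reference cells held 25.1 and 1686 CPM in the same order of libraries. The 15 epithelial markers summed to 2081 CPM in Kera-high cells labelled Pax6 heterozygous and 5382 CPM in wild-type Kera-high cells, a sum that includes Aldh3a1, which keratocytes also make. Of the rule's keratins, Krt5 was at 26.1 against 227 CPM in wild type, Krt14 at 22.6 against 31.9 CPM and Krt15 at 61.9 against 30.2 CPM. The 10 endothelial markers summed to 60.4 CPM against 233.5 CPM in wild type, with Tie1 and Cldn5 at 0 in both. The 8 mural markers summed to 12.5 CPM in each, and the 8 Schwann cell markers to 240 CPM in Kera-high cells labelled Pax6 heterozygous and 214 CPM in wild type. Immune markers summed to 55.3 CPM in Kera-high cells labelled Pax6 heterozygous and 8.54 CPM in wild type, against 2559 and 2870 CPM in the reference cells of those libraries.

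The cells also differ in sex between libraries. In the library labelled Pax6 heterozygous, 97 Kera-high cells held Xist UMIs and none of Y-linked genes (Xist-only) and 398 held Y-linked UMIs and no Xist (Y-only). In wild type, 535 of the 567 Kera-high cells were Xist-only and 0 were Y-only. The Kera-high share of kept cells differed with sex. In the library labelled Pax6 heterozygous it was 2.20% of 4409 Xist-only cells and 10.6% of 3759 Y-only cells. Among 9603 Xist-only cells of wild type it was 5.57%, so the near-equal shares of the whole libraries do not hold within Xist-only cells. The library labelled Pax6 heterozygous thus holds cells of mice of both sexes, and its split by sex is also a split between mice. Sex and mouse cannot be told apart in these labels. The main values below are therefore followed, where it matters, by the level in Xist-only cells of the library labelled Pax6 heterozygous.

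Kera-high cells made up a smaller part of the stromal cells in the library labelled Pax6 heterozygous, 62.3% (566 of 909, interval 59.0 to 65.4), than in wild type, 86.4% (567 of 656, interval 83.6 to 89.0). Among Xist-only cells of the library labelled Pax6 heterozygous the share was 53.6% (97 of 181, interval 46.0 to 61.0), and among its Y-only cells 66.0% (398 of 603, interval 62.1 to 69.8), against 87.1% in Xist-only cells of wild type. How much limbus and sclera was dissected with each cornea can set this share and is not recorded.

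Within the Kera-high cells, Kera itself had a median of 66.8 UMIs per 10000 in the library labelled Pax6 heterozygous (lowest 10.3, quartiles 43.0 and 90.2, highest 312.7) and 100.7 in wild type (lowest 10.3, quartiles 79.8 and 121, highest 189.4). The middle parts of both distributions overlapped between 79.8 and 90.2. Summed over cells, Kera was at 6991 CPM in the library labelled Pax6 heterozygous and 10170.1 CPM in wild type, a ratio of 0.687. Lumican went the other way, at 9601 CPM against 7234 CPM in wild type. Decorin, the most abundant of the 3, was near level at 36616 CPM against 34183 CPM in wild type.

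**Figure D1:**
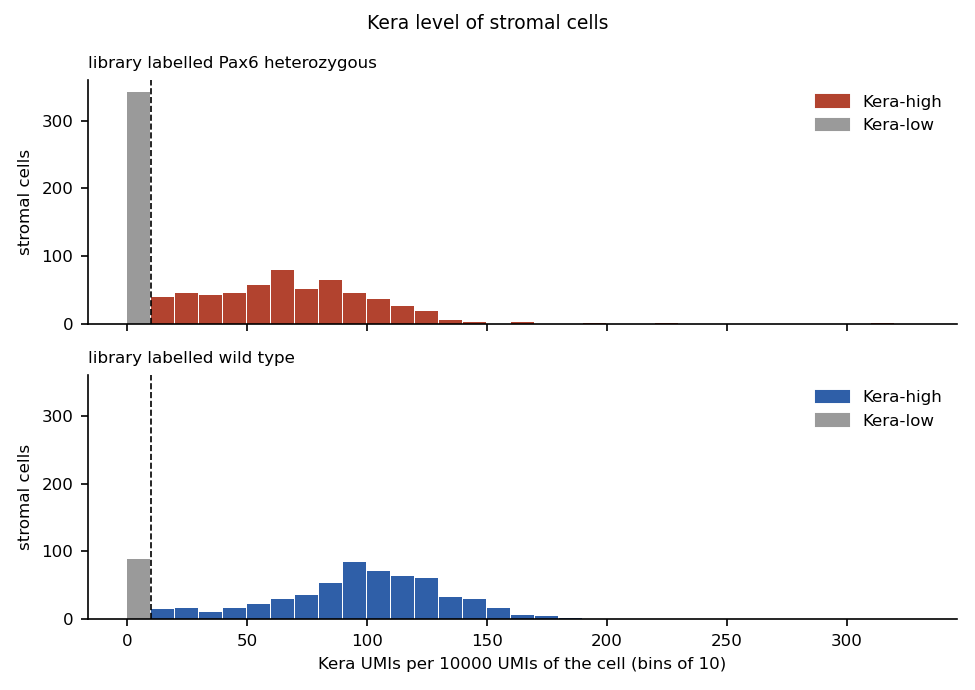
Number of stromal cells (vertical axis) by Kera UMIs per 10000 UMIs of the cell in bins of 10 (horizontal axis), for the library labelled Pax6 heterozygous in the upper panel and wild type in the lower one. Grey bars are Kera-low and coloured bars Kera-high cells, and the dashed line is the limit of 10. The Kera-high cells labelled Pax6 heterozygous have their median at 66.8 and those of wild type at 100.7.

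Some cells lay close to the limit of 10. Between 10 and 15 UMIs of Kera per 10000 there were 16 cells labelled Pax6 heterozygous and 7 wild-type cells, and between 5 and 10 there were 32 and 7 cells in the same libraries. Kera was exactly 0 in 250 of the 343 Kera-low cells labelled Pax6 heterozygous and in 74 of the 89 wild-type ones. In the library labelled Pax6 heterozygous, cells just inside the limit held 211 CPM of Mmp3 and 34.5 CPM of Penk, and cells just outside held 492 and 343 CPM. Chst5 was at 250.1 CPM just inside and 216 CPM just outside in that library, and at 188 and 260.5 CPM among the 7 cells on each side in wild type.

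Kera-high cells differed from Kera-low cells in both libraries. The keratan sulfate enzymes B3gnt7 and Chst5 were higher, and many of the listed protease, chemokine and limbal fibroblast genes were lower. Genes of 20 CPM or more in either class were counted when they differed by a factor of 2 or more. In the library labelled Pax6 heterozygous, 213 of 6709 such genes (3.17%) stood higher and 443 (6.60%) lower in Kera-high cells. In wild type, 503 of 7250 (6.94%) were higher and 683 (9.42%) lower, against only 89 Kera-low cells. Scaling by edgeR's trimmed mean of M values (TMM), which shifts log2 ratios by 0.17 and 0.12, gave 308 higher and 348 lower in the library labelled Pax6 heterozygous and 615 higher and 584 lower in wild type. Of 6290 genes measured in both libraries, 89 were higher in both, which is 59.3% of the 150 higher in the library labelled Pax6 heterozygous and 23% of the 387 higher in wild type. For the lower genes, 253 were lower in both, 68.6% of the 369 in the library labelled Pax6 heterozygous and 48.1% of the 526 in wild type.

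The keratan sulfate enzymes followed Kera. B3gnt7, which adds N-acetylglucosamine to the growing chain, was at 40.0 CPM in Kera-high and 5.65 CPM in Kera-low cells labelled Pax6 heterozygous. In wild type it was at 163 CPM in Kera-high cells and had 0 UMIs in Kera-low cells, at least 27.5-fold higher by a floor of 3 UMIs. Chst5, the sulfotransferase of corneal keratan sulfate, was at 277 and 95 CPM in Kera-high and Kera-low cells labelled Pax6 heterozygous, a ratio of 2.92, and at 255 and 41.4 CPM in the same classes of wild type, a ratio of 6.16. Angptl7, a secreted angiopoietin-like protein abundant in keratocytes, had ratios of 2.15 in the library labelled Pax6 heterozygous and 3.18 in wild type. Thbs4 (2.14 and 3.15) and Dpt, the collagen-binding protein dermatopontin (3.18 and 4.09), were higher in Kera-high cells of both libraries too, although both stand in the list of limbal and scleral fibroblast genes.

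The order of the classes was the same at equal depth. With each cell thinned to 2000 UMIs, which left out 11 Kera-high cells labelled Pax6 heterozygous and 25 wild-type ones, B3gnt7 had a UMI in 7.93% of Kera-high and 0.312% of Kera-low cells labelled Pax6 heterozygous. The wild-type shares were 24% and 0%, and reference cells had 0.251% in the library labelled Pax6 heterozygous and 0% in wild type. Unthinned, 31.6% of Kera-high cells labelled Pax6 heterozygous and 64.7% of wild-type ones had a B3gnt7 UMI.

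The 12 named genes with the highest ratios in both libraries, out of 54 that met the same limits, include the receptor genes Ednrb, Erbb4 and Cd40. Receptor genes were not counted as a group. Ednrb, the endothelin B receptor, was at 93.9 CPM in Kera-high and 6.42 CPM in Kera-low cells labelled Pax6 heterozygous, and at 89.2 and 1.97 CPM in those classes of wild type. Erbb4, a receptor for neuregulins, was the most abundant of the 12 named genes, at 465 against 114 CPM in the library labelled Pax6 heterozygous and 505 against 84.8 CPM in wild type. Cd40, a receptor of the tumour necrosis factor family, had ratios of 5.90 in the library labelled Pax6 heterozygous and 16.8 in wild type. Pcsk2, a prohormone convertase, had 12.3 and 7.89, and Ass1, the argininosuccinate synthase of arginine synthesis, 3.91 and 9.94. The secreted or matrix genes were Mamdc2 (8.90 and 15.1) and the transmembrane collagen gene Col13a1 (3.90 and 4.52). Fam169a, Arsj, Jph4, Cpne7 and Fjx1 completed the 12, with ratios of 3.25 to 5.10 in the library labelled Pax6 heterozygous and 3.38 to 8.96 in wild type.

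The 12 named genes with the lowest ratios include a protease, an opioid precursor and chemokines. Mmp3, the stromelysin that cleaves proteoglycans, was at 112 CPM in Kera-high and 2654 CPM in Kera-low cells labelled Pax6 heterozygous, and at 26.4 and 4895 CPM in those classes of wild type. Penk, the enkephalin precursor, was at 33.5 against 1374 CPM in the library labelled Pax6 heterozygous and 0.379 against 469.6 CPM in wild type. Tnn, a tenascin, had the lowest ratio in the library labelled Pax6 heterozygous, 0.00905, and 0.00194 in wild type. Aldh1a2, the retinaldehyde dehydrogenase that makes retinoic acid, had 0.0178 and 0.00343. The chemokines Cxcl5 (0.0205 and 0.0201) and Cxcl12 (0.0369 and 0.0127) were low in Kera-high cells as well. Stc1, Gfra2, Gm973, Myoc, Fbln1 and Fst completed the lower 12, with ratios of 0.0295 to 0.0759 in the library labelled Pax6 heterozygous and 0.00363 to 0.0332 in wild type. Myocilin, the product of Myoc, is abundant in trabecular meshwork and sclera.

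**Figure D2:**
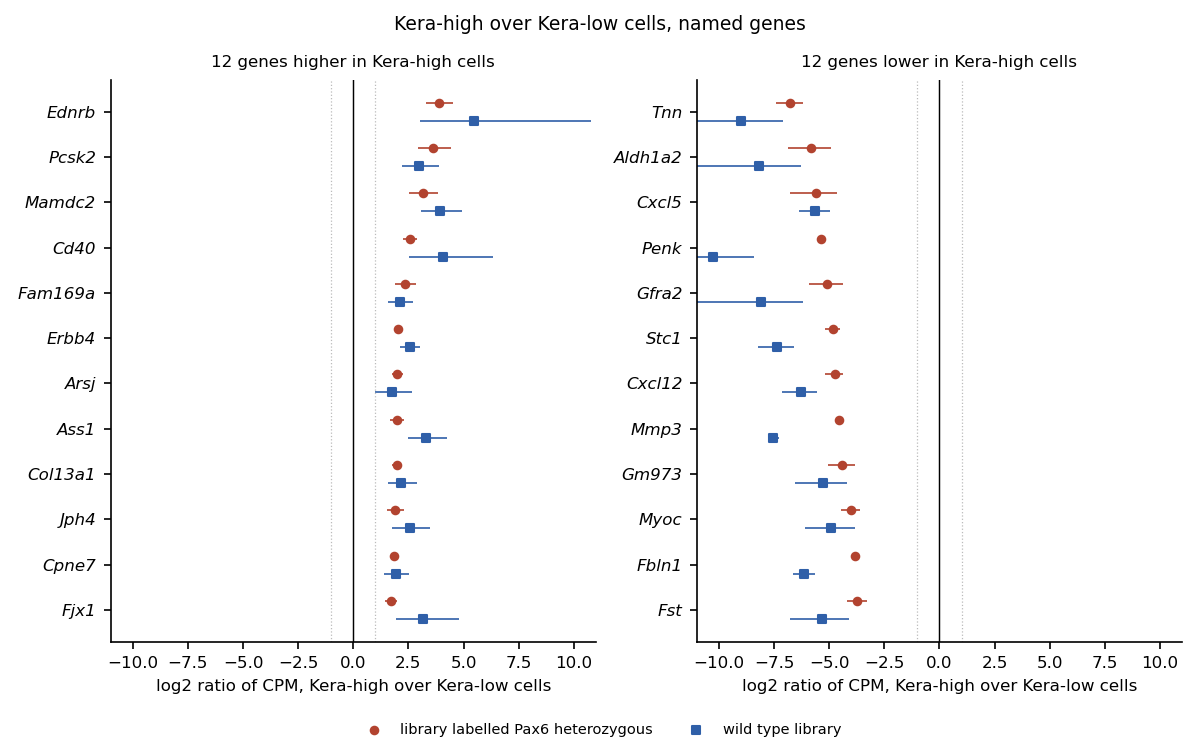
log2 ratio of CPM, Kera-high over Kera-low cells (horizontal axis), for the 12 named genes higher and the 12 named genes lower, with circles for the library labelled Pax6 heterozygous, squares for wild type and exact 95% counting intervals as bars. A bar that meets the edge of a panel runs on past it, and dotted lines mark 2-fold. Every one of the 24 genes lies beyond the 2-fold lines in both libraries, by the rule that named them.

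Counts over whole gene groups, at 5 CPM or more in either class, are read against 3.47% higher and 8.86% lower of all 10652 genes in the library labelled Pax6 heterozygous, and 9.13% and 13.1% of 11266 genes in wild type. Of the stromal collagens, 3 of 20 stood 2-fold or more higher and 6 lower in the library labelled Pax6 heterozygous, and 5 and 5 of 20 in wild type. Col5a1, a fibril-thinning collagen V chain, had ratios of 2.92 and 2.69, while Col3a1, a collagen of skin, sclera and wounds, had 0.374 and 0.0311. Col8a1 went with Col3a1, at 0.329 and 0.0332. These collagens were picked out after their values were seen.

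In the list of limbal, scleral and conjunctival fibroblast genes, 9 of 22 were lower and 2 higher in Kera-high cells labelled Pax6 heterozygous, and 14 and 2 of 22 in wild type. Of the chemokines and cytokines, 11 of 20 were lower and 3 higher in the library labelled Pax6 heterozygous, and 13 and 0 of 15 in wild type, with median log2 ratios of -2.44 and -3.96. Of the proteases and inhibitors 7 of 18 were lower and 0 higher in the library labelled Pax6 heterozygous, and 11 and 0 of 18 in wild type. Of the elastic fibre genes 7 of 20 were lower and 0 higher in the library labelled Pax6 heterozygous, and 12 and 0 of 20 in wild type. In the proteoglycan list, which includes Kera, Lum and Dcn of the rule, 5 of 15 genes were lower in Kera-high cells labelled Pax6 heterozygous and 10 of 15 in those of wild type. None of the 24 cytosolic ribosomal protein genes were 2-fold apart in either library.

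Within the Kera-high cells, other genes varied with the Kera level. Cells were placed in 4 ranges of Kera per 10000 UMIs: 10 to 40, 40 to 80, 80 to 120 and 120 to 400. The ranges held 128, 232, 173 and 33 cells labelled Pax6 heterozygous and 41, 103, 273 and 150 wild-type cells. The rule used Kera, and the genes of this paragraph and the next were chosen after their values were seen, so these are descriptions.

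B3gnt7 stood at 18.3, 35.7, 56.3 and 58.2 CPM over the 4 ranges, low to high, in cells labelled Pax6 heterozygous, and at 63.2, 121, 179 and 175 CPM in wild-type cells. It was lower in the library labelled Pax6 heterozygous at every Kera range. The highest range there (26 UMIs of B3gnt7) and the lowest of wild type (13 UMIs) hold too few UMIs to be ordered. Chst5 stood at 229.9, 269, 312 and 318 CPM in cells labelled Pax6 heterozygous and 141, 202, 276 and 268 CPM in wild-type cells. Tacr3, the neurokinin B receptor, stood at 8.86 and 53.7 CPM in the lowest and highest ranges of the library labelled Pax6 heterozygous, and at 82.7 and 224 CPM in those of wild type.

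Col3a1, Mmp3 and Tnc ran the opposite way. Col3a1 stood at 1138, 894, 597 and 506 CPM from the lowest to the highest Kera range in cells labelled Pax6 heterozygous, and at 189.7, 50.3, 46.5 and 31.1 CPM in wild-type cells. Mmp3 stood at 329 and 17.9 CPM in the lowest and highest ranges of the library labelled Pax6 heterozygous and at 379 and 7.23 CPM in those of wild type. Tnc, the wound-associated matrix protein tenascin-C, had 173 and 24.6 CPM in those ranges of the library labelled Pax6 heterozygous and 19.5 and 0 CPM in wild type. The main fibril collagen genes did not. Col1a1 had 25671 and 36699.7 CPM at the 2 ends in cells labelled Pax6 heterozygous and 7389 and 9157 CPM in wild-type cells. Col1a2 had 22011 and 32456 CPM at those ends in cells labelled Pax6 heterozygous and 7919 and 10729 CPM in wild-type cells.

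**Figure D3:**
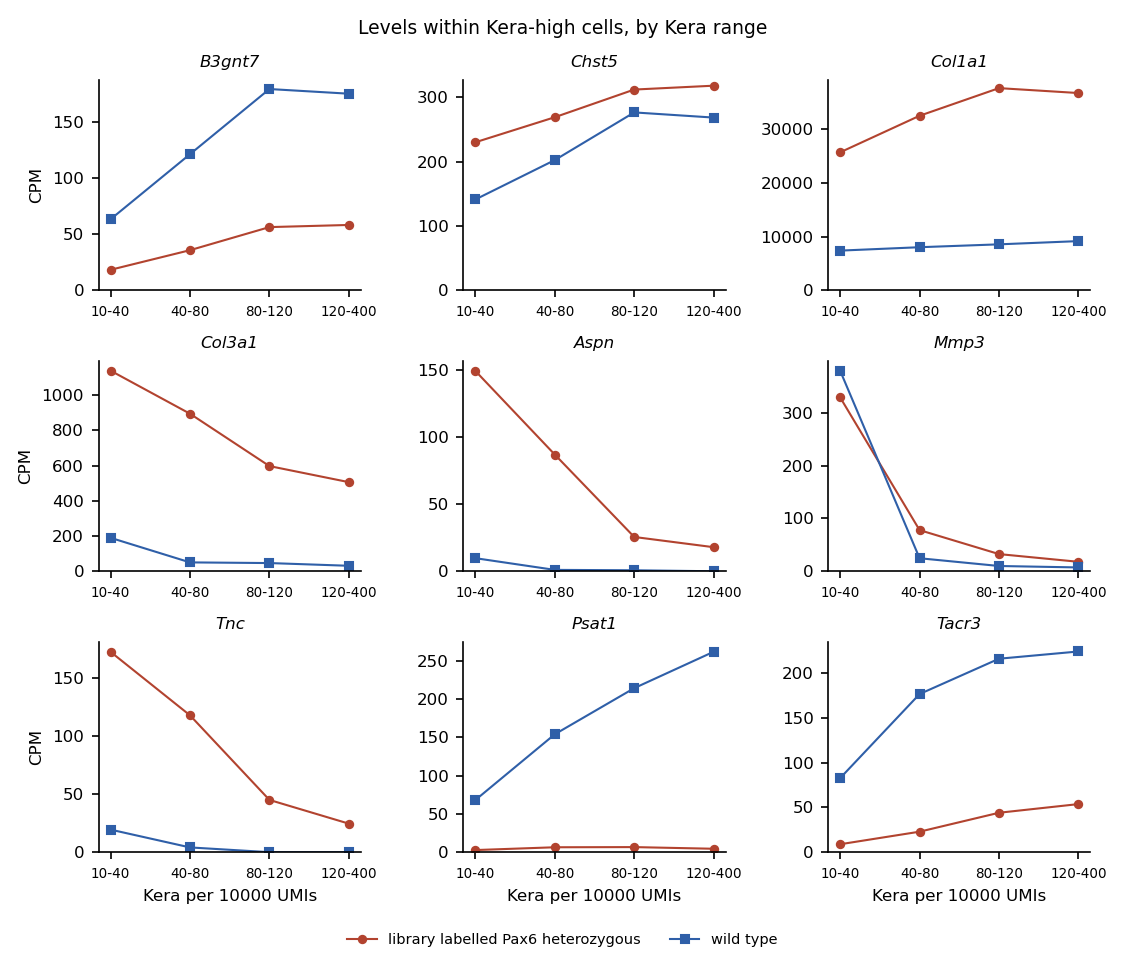
Level in CPM (vertical axes, linear, each from 0 and scaled to its gene) of 9 genes over the 4 Kera ranges (horizontal axis, UMIs of Kera per 10000), with circles for the library labelled Pax6 heterozygous and squares for wild type. The level of B3gnt7 and Chst5 is higher in the 80 to 120 range than in the 10 to 40 range in both libraries, while that of Col3a1, Mmp3 and Tnc is lower.

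Between the libraries, Kera-high cells labelled Pax6 heterozygous had higher levels of many collagen, protease, chemokine and immediate early genes and lower levels of many Wnt and nerve guidance genes than wild-type Kera-high cells. With the same limits, 584 of 6943 genes (8.41%) stood higher and 598 (8.61%) lower in the library labelled Pax6 heterozygous. TMM scaling, which shifts every log2 ratio by 0.25, turned this to 780 higher and 333 lower, and DESeq2 size factors to 785 and 329, so the balance between higher and lower depends on the scaling. Ratios below use class totals, and the shift would raise all of them alike. In Xist-only cells of the library labelled Pax6 heterozygous, 546 of 6966 genes (7.84%) were higher and 542 (7.78%) lower than in the same wild-type cells, and in Y-only cells 607 of 6943 (8.74%) were higher and 668 (9.62%) lower. Kera-low cells, compared in the same way, had 506 of 7177 genes (7.05%) higher and 504 (7.02%) lower in the library labelled Pax6 heterozygous.

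The genes with the highest ratios were nearly silent in wild-type Kera-high cells. Chil1, a chitinase-like secreted protein, was at 183 CPM in Kera-high cells labelled Pax6 heterozygous and 1.71 CPM in wild type (ratio 107, interval 56.3 to 235). Aspn, the small leucine-rich proteoglycan asporin, was at 76 CPM against 0.949 CPM in wild type, a ratio of 80.1 (interval 34.2 to 248). In Kera-low cells the ratio of Aspn was 1.28, since wild-type Kera-low cells held 296 CPM. Has1, a hyaluronan synthase, was at 127 CPM against 2.47 CPM in wild type, with 79.6 CPM in Xist-only cells of the library labelled Pax6 heterozygous. Tnc was at 101 CPM against 1.52 CPM in wild type.

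Signals and regulators followed. Tac1, the substance P precursor, was at 185 CPM in Kera-high cells labelled Pax6 heterozygous and 4.36 CPM in wild type, and its ratio was 42.3 in Kera-high and 25.2 in Kera-low cells. Olfm2, a secreted olfactomedin, was at 177 CPM against 3.23 CPM in wild type. Glis1, a zinc finger transcription factor, was at 88.3 CPM against 0.949 CPM in wild type. Bcat1, the cytosolic branched-chain aminotransferase, was at 54 CPM against 0 UMIs in wild type, at least 94.9-fold higher. Unthinned, 32.9% of Kera-high cells labelled Pax6 heterozygous held a Bcat1 UMI. Serpina3n, a protease inhibitor of the acute-phase type, had 74.4 CPM against 1.14 CPM in wild type, but 16.2 CPM in Xist-only and 85.9 CPM in Y-only cells of the library labelled Pax6 heterozygous. C1s2 (55.5 against 0.190 CPM in wild type) and C1rb (55.9 against 0.569 CPM) are close copies of C1s1 and C1ra, which had ratios of 0.920 and 0.866, so the assignment of their reads is uncertain. Pianp, a neural membrane protein, was at 50.9 CPM against 0.379 CPM in wild type.

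Among the genes with the lowest ratios, 5 were keratocyte transcripts, in that wild-type reference cells held far less of them. Cadps, which primes dense-core vesicles for release, was at 0.345 CPM in Kera-high cells labelled Pax6 heterozygous and 152 CPM in wild type (ratio 0.00228, interval 0.000468 to 0.00667). After thinning, 0.180% of Kera-high cells labelled Pax6 heterozygous and 19% of wild-type ones had a Cadps UMI, against 0% of reference cells in both. Psat1, the phosphoserine aminotransferase of serine synthesis, was at 5.63 CPM against 209.8 CPM in wild type (ratio 0.0269, interval 0.0197 to 0.0357). Slc38a1, a glutamine transporter, was at 3.68 CPM against 113 CPM, and Htr5b, a serotonin receptor, at 1.49 against 81.8 CPM in wild type. Gpha2, a glycoprotein hormone subunit known as a limbal epithelial marker, was at 39.3 CPM in Kera-high cells labelled Pax6 heterozygous and 405 CPM in wild type. That wild-type level exceeded the 76 CPM of wild-type epithelial cells.

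The other 7 of the lower 12 were Tmprss11a, Dapl1, Aqp5, Upk3bl, Dsp, Ahnak2 and Col17a1, most of them epithelial. Ahnak2 stood apart, at 118 CPM in Kera-high, 44.3 CPM in reference and 216 CPM in epithelial cells of wild type. Aqp5, a water channel of corneal epithelium, was at 4.37 CPM in Kera-high cells labelled Pax6 heterozygous and 112 CPM in wild type, but also at 193 CPM in wild-type reference cells. For Dsp, the desmosomal desmoplakin, wild-type Kera-high and reference cells held 99.4 and 188 CPM. Of all 598 lower genes, 234 stood at or above the Kera-high level in the wild-type reference cells and 360 had neither that nor an epithelial level 10-fold above the Kera-high one. Of the 584 higher genes, 338 likewise had neither in the library labelled Pax6 heterozygous.

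**Figure D4:**
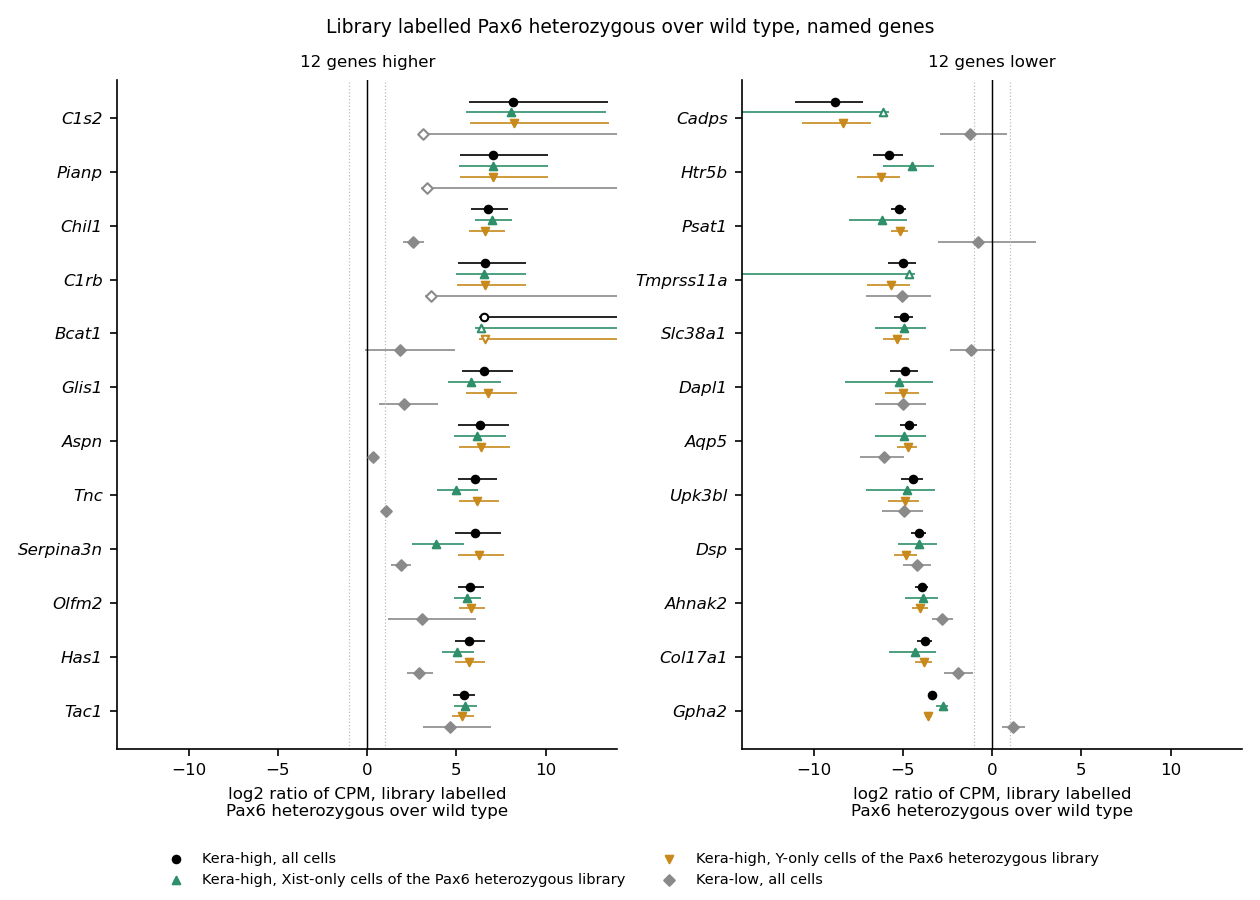
log2 ratio of CPM, library labelled Pax6 heterozygous over wild type (horizontal axis), for the 12 named genes higher and 12 named genes lower, in all Kera-high cells (circles), with the numerator limited to Xist-only cells (upward triangles) or Y-only cells (downward triangles), and in Kera-low cells (diamonds). Bars are exact 95% counting intervals, which run on past a panel's edge where they meet it, open symbols are bounds from 0 UMIs, and dotted lines mark 2-fold. Aspn and Gpha2 are among the genes whose Kera-low ratio (1.28 and 2.25) lies far from the Kera-high one.

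The counts of gene groups between libraries, at 5 CPM or more, stand against 8.93% higher and 12.7% lower of all 10745 genes, with a median log2 ratio of −0.25. In keratan sulfate and glycosaminoglycan synthesis, 5 of 16 genes were higher and 2 lower in Kera-high cells labelled Pax6 heterozygous. The chain-extending B3gnt7 was at 0.246 of its wild-type level (interval 0.216 to 0.279) and the sulfotransferase Chst2 at 0.416, while Chst5 was near level at 1.09. Ugdh, which makes the UDP-glucuronate of hyaluronan and chondroitin chains, was at 596 CPM against 56 CPM in wild type (ratio 10.6, interval 9.47 to 12). Xylt1, which starts chondroitin and heparan chains, was at 45 CPM against 2.47 CPM, and Papss2, which makes the sulfate donor, at 150.5 CPM against 21.4 CPM in wild type. B4galt1, the galactosyltransferase, was at 0.852 of wild type.

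The proteoglycan core proteins, again with the 3 of the rule among them, had 6 of 15 higher and 0 lower. Fibromodulin, Fmod, was at 1256 CPM in Kera-high cells labelled Pax6 heterozygous and 203 CPM in wild type, and perlecan, Hspg2, at 137 CPM against 20.3 CPM. Prelp, another leucine-rich proteoglycan, was near level at 203 CPM against 225 CPM in wild type. Among the keratocyte markers 1 of 9 was higher, Chst1, and 1 lower, B3gnt7.

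Collagen transcripts were higher in the library labelled Pax6 heterozygous for 8 of 20 genes and lower for 0. Col1a1, the main fibril collagen of the stroma, was at 32969 CPM in Kera-high cells labelled Pax6 heterozygous (29416 in Xist-only and 33953 in Y-only cells) and 8569 CPM in wild type, a ratio of 3.85 in Kera-high and 3.79 in Kera-low cells. Col1a2 had a ratio of 2.88. Col3a1 was at 827 CPM (1249 in Xist-only cells) against 48.8 CPM in wild type, a ratio of 17 (interval 15 to 19.3), but in Kera-low cells its ratio was 1.41. Col8a1 was at 194 CPM against 7.21 CPM in wild type. The fibril-associated Col12a1 (0.834) and the microfibril chain Col6a3 (0.816) were near level. After thinning, 35% of Kera-high cells labelled Pax6 heterozygous and 6.64% of wild-type ones had a Col3a1 UMI, against 47.4% and 24.6% of the reference cells of those libraries, which include mural cells.

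Of the collagen processing genes, 6 of 22 were higher and 0 lower. P4ha3, a prolyl hydroxylase subunit, was at 38.4 CPM in Kera-high cells labelled Pax6 heterozygous and 1.14 CPM in wild type, and Pcolce2, an enhancer of procollagen cleavage, at 435 CPM against 43.1 CPM. The collagen chaperone Serpinh1 had a ratio of 1.72, Pcolce 2.04, Plod1 0.694 and P4ha2 0.706. Elastic fibre genes had 9 of 19 higher and 1 lower, the lower one being Efemp1 at 7.36 CPM against 70.9 CPM in wild type. Fbln1 had a ratio of 3.27, Mfap5 2.41, Mfap4 1.47, Fbln5 1.11 and Fbln2 0.851.

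Genes of myofibroblasts and fibrosis were higher for 7 of 15 and lower for 0. Postn, periostin, was at 235 CPM in Kera-high cells labelled Pax6 heterozygous and 35.1 CPM in wild type, and the collagen-binding Sparc at 33054 CPM against 12305 CPM. Fibronectin, Fn1, had a ratio of 1.60, Thbs1 0.663 and the matricellular Ccn1 0.561. Of the proteases and inhibitors, 11 of 17 were higher and 0 lower. Timp1, a metalloprotease inhibitor, was at 56.5 CPM, with 14.7 CPM in Xist-only and 65.2 CPM in Y-only cells, against 0.949 CPM in wild type. Mmp3 was at 112 CPM, with 239 CPM in Xist-only and 86.9 CPM in Y-only cells, against 26.4 CPM in wild type. Mmp2 (0.826), Timp2 (1.20) and Timp3 (0.735) were near level, and Serpinf1, which encodes pigment epithelium-derived factor, had a ratio of 1.78. In Kera-low cells 2 of 18 genes of this list were higher and 3 lower, where 8.88% and 11.8% of all 11312 genes were.

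The limbal, scleral and conjunctival fibroblast list had 10 of 21 genes higher and 0 lower in Kera-high cells labelled Pax6 heterozygous. Penk was at 33.5 CPM against 0.379 CPM in wild type, and Clec3b, tetranectin, at 45.9 CPM against 1.52 CPM. Apod (0.774), Smoc2 (0.621) and Dpp4 (0.553) lay within 2-fold of wild type. Kera-low cells labelled Pax6 heterozygous held 1374 CPM of Penk, and what part of these transcripts in Kera-high cells is free RNA was not tested.

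Among the anterior segment transcription factors 3 of 19 were higher and 5 lower. Twist1, a mesenchymal factor, was at 322 CPM in Kera-high cells labelled Pax6 heterozygous and 924 CPM in wild type, but its ratio in Kera-low cells was 0.952. Tfap2b, a neural crest factor, had a ratio of 0.467, Eya2 0.300 and Meis2 0.163, the Meis2 level in wild type (33.2 CPM) being under that of wild-type reference cells (74.2 CPM). Sox9 was at 25.5 CPM against 2.66 CPM in wild type, and Runx1 had a ratio of 2.50. Klf4 (1.62) and Zfhx4 (0.741) lay within 2-fold.

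Wnt pathway genes were the group with most lower members, 9 of 18 against 2 higher, and a median log2 ratio of -0.93. In Xist-only cells of the library labelled Pax6 heterozygous 7 of 18 were lower and 4 higher, where 11.9% and 9.72% of all 10913 genes were. The ligand Wnt5a was at 548 CPM in Kera-high cells labelled Pax6 heterozygous (602 in Xist-only and 544 in Y-only cells) and 1645 CPM in wild type. The secreted antagonist Dkk2 was at 487 CPM (494 in Xist-only cells) against 1583 CPM in wild type. Axin2 and Notum, both feedback targets of Wnt signalling, had ratios of 0.231 and 0.254. Sfrp2, a Wnt-binding protein, was higher, at 78.8 CPM against 19.4 CPM in wild type, Dkk3 had a ratio of 1.95 and Tcf4 0.768. In Kera-low cells the ratio of Wnt5a was 1.24 and that of Dkk2 0.938.

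In the TGF-beta and BMP list 9 of 22 genes were higher and 1 lower. The ligand Tgfb1 was at 167 CPM in Kera-high cells labelled Pax6 heterozygous and 25.6 CPM in wild type, and Ltbp2, of the latent TGF-beta binding protein family, at 21.6 CPM against 0.759 CPM. Bmp3 was at 229 CPM against 461 CPM in wild type. The BMP target Id3 had a ratio of 1.78, the BMP receptor Bmpr1a 0.576 and Fstl1 2.14. Retinoid genes had 3 of 11 higher and 3 lower. Crabp2, a retinoic acid carrier, was at 27.6 CPM against 153 CPM in wild type, and Cyp26b1, which degrades retinoic acid, at 37.6 CPM against 8.54 CPM. The receptor genes Rara and Rarb had ratios of 2.66 and 0.347, and Aldh1a1 one of 0.886.

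Nerve guidance genes matter in a densely innervated tissue, and 7 of 20 were lower and 1 higher in Kera-high cells labelled Pax6 heterozygous. The secreted semaphorin Sema3c, the most abundant of its family here, was at 357 CPM (259 in Xist-only and 382 in Y-only cells) against 1074 CPM in wild type. Sema3e was at 10.8 CPM against 109 CPM, and netrin-1, Ntn1, at 21.6 CPM against 113 CPM in wild type. Sema3d was higher, at 22.4 CPM against 4.17 CPM in wild type. Slit3 had a ratio of 1.24 and Efna5 1.06.

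Growth and vessel factors had 6 of 20 higher and 2 lower. Csf1, the macrophage growth factor, was at 103 CPM in Kera-high cells labelled Pax6 heterozygous and 17.3 CPM in wild type, Igf1 at 33.1 against 7.59 CPM and Igf2 at 8.28 against 35.7 CPM. The epithelial growth factor Fgf10 had a ratio of 0.489 and Angptl7 1.31. Vegfa, the vessel growth factor, was at 168 CPM against 52.9 CPM in wild type.

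Among immune mediators, of the chemokines and cytokines 9 of 14 were higher and 0 lower. Il11, a cytokine of fibroblasts, was at 47.8 CPM in Kera-high cells labelled Pax6 heterozygous (25.8 in Xist-only cells) and 0.379 CPM in wild type. Ccl2, which attracts monocytes, was at 139 CPM, 45.7 CPM in Xist-only and 153 CPM in Y-only cells, against 29 CPM in wild type, and reference cells held 1074 and 573 CPM in the library labelled Pax6 heterozygous and wild type. Ptgs2, the inducible cyclooxygenase, had a ratio of 2.24, Il34 1.69, Cxcl1 1.24 and Tnfaip6 1.12. The complement list had 2 of 8 higher and 1 lower. The inhibitor Clu was higher, at 293 CPM against 11.6 CPM in wild type, C1qtnf7 was lower at 0.448, and Serping1 had a ratio of 1.13. Interferon-response genes had 5 of 26 higher and 2 lower, and in Y-only cells 2 of 25 were higher, where 8.98% of all 10735 genes were. Irf1 stood at 0.298 and Ifit2 at 0.200 of wild type. Ifitm2, the most abundant of them, had a ratio of 0.729, Ifitm3 1.45, Ifitm1 1.71 and Gbp7 1.84. Antigen presentation genes had 4 of 15 higher and 0 lower, against 2 of 14 higher in Y-only cells. H2-D1 stood at a ratio of 2.27, H2-K1 at 0.666, B2m at 1.10, Tapbp at 1.36, H2-T23 at 0.775 and H2-T22 at 0.793. Reads of these close class I genes may be shared between copies.

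Immediate early and dissociation stress genes had 10 of 27 higher and 1 lower in Kera-high cells labelled Pax6 heterozygous. Such genes respond to tissue digestion within minutes, and their part in the other differences was not tested. Fos was the lower one, at 1777 CPM (3243 in Xist-only and 1476 in Y-only cells) against 4440.1 CPM in wild type. Myc was at 103 CPM against 6.83 CPM, Fosl1 at 107 against 7.59 CPM and Btg2 at 2789 against 664 CPM in wild type. Fosb had a ratio of 2.31 and Socs3 0.543. In Kera-low cells 10 of 27 genes of the list were higher and 0 lower.

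Corneal cells accumulate soluble enzymes called corneal crystallins. Aldh3a1, the main one in mouse cornea, was at 1902 CPM in Kera-high cells labelled Pax6 heterozygous (2289 in Xist-only cells) and 3760.3 CPM in wild type, a ratio of 0.506, which is within 2-fold. Transketolase, Tkt, was lower, at 808 CPM against 1784 CPM in wild type. Wild-type reference cells held 563 CPM of Aldh3a1 and 421 CPM of Tkt, which epithelium also makes. Over the whole antioxidant and crystallin list 3 of 23 were higher and 4 lower, and with Xist-only cells 1 and 5. Hmox1, heme oxygenase, was at 159 CPM against 6.07 CPM in wild type, Mt1 had a ratio of 2.93 and Gsta4 0.391.

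Metabolic groups were mixed. Glycolysis and hypoxia genes had 5 of 18 higher and 3 lower, and with Xist-only cells 3 and 4. Hexokinase 2, Hk2, was at 515 CPM in Kera-high cells labelled Pax6 heterozygous and 146 CPM in wild type, Egln3 had a ratio of 0.323, Eno1 0.406, Gapdh 1.19 and Ldha 1.33. Lipid genes had 1 of 16 higher and 2 lower (with Xist-only cells 1 and 5), the lower ones being Scd2, a fatty acid desaturase, at 0.273 and Apoe at 0.449. Ptgis had a ratio of 1.26 and Insig1 0.891. In the transport and junction list 1 of 12 were higher and 2 lower: the water channel Aqp1, at 835 CPM against 1725 CPM in wild type, and the amino acid transporter Slc38a2, at 134 against 371 CPM. Slc2a1 had a ratio of 1.63, Slc4a4 0.828 and Cdh11 0.735.

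Of 24 cytosolic ribosomal protein genes, 0 were higher and 1 lower. Rps18, the lower one, had a ratio of 0.403 in Kera-high and 0.403 in Kera-low cells and has near-identical copies, so its count is uncertain. Rpl10 had a ratio of 0.568, Rplp0 1.11, Rplp1 0.888, Rpl13 0.990 and Rps12 1.25. Only 5 cell cycle genes reached 5 CPM, and 2 were lower. One of these was the chromatin protein Hmgb2, at 0.437 of wild type, while the replication clamp Pcna had a ratio of 0.885.

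**Figure D5:**
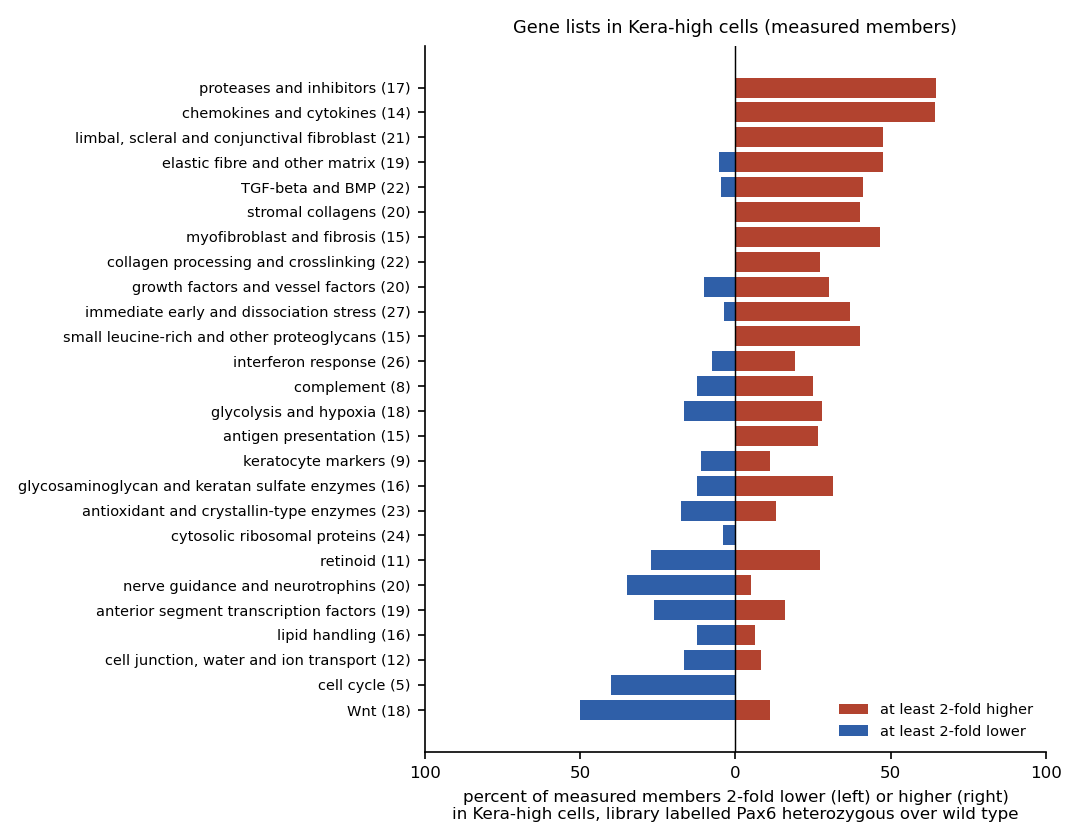
Percent of the measured members of each gene list (number in brackets) at least 2-fold lower (bars to the left) or higher (bars to the right) in Kera-high cells labelled Pax6 heterozygous than in wild-type Kera-high cells, with lists ordered by their median log2 ratio. Proteases and inhibitors stand at the top with 11 of 17 higher and a median of 1.39, and Wnt at the foot with 9 of 18 lower and a median of -0.93, where all genes have a median of −0.25.

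Within the library labelled Pax6 heterozygous, Y-only and Xist-only Kera-high cells differed by less. Of 6372 genes of 20 CPM or more, 60 (0.942%) stood 2-fold or more higher and 69 (1.08%) lower in Y-only cells. At 5 CPM or more the shares of 10406 genes were 2.22% and 4.42%, and in the chemokine and cytokine list 5 of 15 genes were higher and 1 lower. These cells share a library but come from mice of different sex, and whether those mice were dissociated together is not recorded. Timp1, Serpina3n, Ccl2 and Fos differed between them. Of these, Timp1, Serpina3n and Ccl2 stood higher in Y-only cells and Fos stood lower. Their order rests on levels summed over 97 Xist-only cells, and shares of cells with a UMI were not counted for them. The summed level of Mmp3 was lower in Y-only cells too, but rested on few Xist-only cells. An Mmp3 UMI was held by 30.2% of Y-only and 24.7% of Xist-only cells, so no order is read from that gene.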

How the data were processed

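UMIs were measured by 10x Genomics droplet sequencing in 1 library per genotype. The deposited matrices hold raw UMI counts of 32285 genes per cell barcode, made by the authors with Cell Ranger 8.0.0, per the file headers, on GRCm38, per the submitters' processing notes; they were filtered to 10574 barcodes in the library labelled Pax6 heterozygous and 11354 in wild type. Members and gene lists were chosen with earlier results of these data known. From the counts, cells were kept and classed by the limits stated with the results, UMIs were summed per class, and CPM and ratios with exact binomial 95% intervals (conditional for ratios, Clopper-Pearson for shares) were computed with Python 3.11.15, numpy 2.4.6, scipy 1.17.1 and pandas 2.3.3; matplotlib 3.10.9 drew the figures. A count of 0 was given a floor of 3 UMIs per class. UMI intervals cover counting error only. Cells are not replicates, so no test across genes was run; the ratio code was tested on simulated data. Genes are called by size, at least 2-fold apart with at least 20 CPM in either class, and list members are measured at 5 CPM. The named genes are those of the rule, B3gnt7 and Pax6; for Kera-high over Kera-low the 12 each way of at least 50 CPM in both libraries with the largest smaller ratio; between libraries the 12 each way of at least 50 CPM and 30 UMIs with the interval bound farthest from 1, without marker-check, sex and mitochondrial genes; and up to 6 members per list of at least 20 CPM, those of extreme ratio and highest level. Some genes that these rules name are not reported here. Other genes named were chosen after their values were seen. Scrublet (scanpy 1.11.5) marked 0.398% of cells in the library labelled Pax6 heterozygous and 0.0296% in wild type, so it has not worked and doublets were kept. The libraries share 40 barcodes, 33 of them kept. Alternatives changed the limits, scaling (edgeR 4.0.16, DESeq2 1.42.0, R 4.3.3), weighting, depth and filters.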

Additional observations from a re-analysis of the deposited data

Results flagged for a closer look

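Among the genes named by the rules above and of at least 50 CPM in a class, 6 ran in opposite directions, each past 2-fold, between classes or libraries. Over all genes counted between libraries, 13 of the 584 higher in Kera-high cells were 2-fold or more lower in Kera-low cells. Likewise, 15 of the 598 lower ones were 2-fold or more higher in Kera-low cells. None of these differences was tested, and wild-type Kera-low cells, which enter every one, number 89. Apoe, the lipid carrier, had a Kera-high over Kera-low ratio of 0.214 in the library labelled Pax6 heterozygous and 4.47 in wild type, and a ratio between libraries of 0.449 in Kera-high and 9.37 in Kera-low cells. Gpha2 had a Kera-high over Kera-low ratio of 0.385 in the library labelled Pax6 heterozygous and 8.93 in wild type, and a ratio between libraries of 0.0970 in Kera-high and 2.25 in Kera-low cells. Cadps had a Kera-high over Kera-low ratio of 0.103 in the library labelled Pax6 heterozygous, where both classes were low, and 19.2 in wild type. Glis1 had 2.65 and 0.120 in that order of libraries. Ccl2 had a ratio between libraries of 4.77 in Kera-high and 0.325 in Kera-low cells, and Timp1 one of 59.5 in Kera-high and 0.458 in Kera-low cells.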

How the results depend on the processing

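No paired analysis was possible because each genotype has 1 library and no value comes from a replicated test, and no replicate could be left out. No named value past 2-fold changed sign under any alternative, but with TMM factors the higher genes outnumber the lower ones between libraries in Kera-high cells (780 against 333) and in Kera-high over Kera-low cells of wild type (615 against 584). The 16 alternative cell counts stayed within 1.5 times, as did 104 of 138 counts of genes. Of 1092 list medians, 8 moved by more than a fixed log2 difference, and 665 of 3518 values of named genes moved beyond their counting intervals. Of 150 named values past 2-fold, 143 or more remained so under each alternative that kept all of them; 84 of 98 did with Xist-only cells in both libraries, and, in alternatives chosen after seeing the data, 96 of 98 with Kera between 60 and 120 in both libraries and 96 of 98 with Y-only cells. With TMM and DESeq2 factors the lower genes between libraries numbered 333 and 329 in Kera-high cells and 299 and 314 in Kera-low cells, the scaling shift being the cause. List medians between 0 and −0.25, such as that of antioxidant and crystallin-type enzymes (-0.05), change sign with the shift. At 5 CPM, 50 CPM and no filter, which change how many genes are counted, the higher and lower genes numbered 959 and 1365, 383 and 286, and 2001 and 2765 for Kera-high cells between libraries; 1005 and 1333, 265 and 209, and 1087 and 3318 for Kera-low cells; 370 and 944, 127 and 229, and 897 and 3229 for Kera-high over Kera-low cells labelled Pax6 heterozygous; and 1029 and 1476, 268 and 359, and 1123 and 3568 for those of wild type. With cells thinned to 2000 UMIs they numbered 820 and 926 for Kera-low cells between libraries, 342 and 666 for Kera-high over Kera-low cells labelled Pax6 heterozygous and 830 and 1052 in wild type; the cause was not tested. Depth limits wild-type Kera-low cells most, with 506802 UMIs in 89 cells.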

Other observations

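A share of the differences in level between libraries was found in the other classes of cells too. Of 5049 genes of at least 20 CPM in either library in each of 4 classes (Kera-high, Kera-low, reference and epithelial cells), 276 stood 2-fold or more higher in Kera-high cells labelled Pax6 heterozygous, of which 28 (10.1%) were so in all 4 classes and 86 in Kera-high cells alone. Of the 313 lower ones, 35 (11.2%) were so in all 4 classes and 154 in Kera-high cells alone. Here alone means within 2-fold or the other way in the other classes. The 35 include the epithelial markers Slurp1, Lypd2 and Krt12, at 2800, 4175 and 29639 CPM in wild-type epithelial cells. What part of such transcripts in the other classes is free RNA was not tested. Il31ra, a cytokine receptor gene, was at 42.1, 51.1, 36.3 and 32.4 CPM in the Kera-high, Kera-low, reference and epithelial cells labelled Pax6 heterozygous, against 217, 262, 397 and 133 CPM in the same classes of wild type. Rpl29, a ribosomal protein gene with many processed copies, so that its count is uncertain, was at 43.1 CPM in Kera-high cells labelled Pax6 heterozygous against 325 CPM in wild type, and at 174 CPM in epithelial cells against 1178 CPM. Rnaset2a, a ribonuclease gene with a close copy, was at 47 CPM in Kera-high cells labelled Pax6 heterozygous and 4.93 CPM in wild type. Nme7 was at 93 CPM in Kera-high cells labelled Pax6 heterozygous and 22.4 CPM in wild type.

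Tacr3, the receptor for neurokinin B, was at 28.5 CPM in Kera-high cells labelled Pax6 heterozygous and 206 CPM in wild type, while Tac1, the precursor of another tachykinin, stood 42.3-fold above wild type in Kera-high cells labelled Pax6 heterozygous. These genes were picked after their values were seen.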
